A study of Mus musculus with 12 samples.

Results

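Genes of the acute inflammatory response were followed in eyelid tissue of mice on a high-fat or a standard diet. They were chosen by name from the 21936 genes of the expression table: 10 symbols were looked up (Tnf, Il1b, Il6, Il1rn, Cxcl1, Cxcl2, Ccl3, Ccl4, Ptgs2 and Csf3r), and each occurs there. The tissue came from male C57BL/6 mice with no genetic modification named, aged 6 to 8 weeks before the diets began and housed with 12 hours of light a day. High-fat mice (HF) ate 60 kcal% fat and control mice (CTL) ate 10 kcal% fat, for 3 months by the sample labels and for 4 months by the series text, a difference that was not resolved. Tissue was taken at 9h, 15h and 21h, which gives 6 groups with 2 libraries each and 12 libraries in all. The labels call the tissue meibomian gland, the oil gland of the lid margin, whereas by the series text complete lids were removed, so skin, conjunctiva, muscle and any resident or infiltrating white blood cells can contribute RNA. The sources used here leave unsaid how many mice went into each library, so p-values measure only the library-to-library spread, which may be technical.

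When epithelium or connective tissue is injured or meets microbial products, macrophages, mast cells and epithelial cells make the cytokines TNF, IL-1beta and IL-6, and these act through NF-kB and STAT factors on neighbouring cells. Chemokines released in the same phase draw in neutrophils (CXCL1, CXCL2) or monocytes and T cells (CCL3, CCL4), and the enzyme encoded by Ptgs2 supplies prostaglandins. The arm is restrained by decoys and antagonists such as the IL-1 receptor antagonist, and many of these transcripts are short-lived and rise soon after handling or damage of tissue.

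The upstream sequences of Tnf, the gene with the called diet difference below, and of Il6, Cxcl1 and Cxcl2, a cytokine and a pair of neutrophil chemokines whose windows hold NF-kB matches, are shown to set those motifs beside their values. Each is 250 bases that end just before the RefSeq transcript start on GRCm38.p6, read 5′ to 3′ on the strand of the gene, with matches to the NF-kB consensus in capitals.
Tnf (chr17:35202008-35202257, minus strand): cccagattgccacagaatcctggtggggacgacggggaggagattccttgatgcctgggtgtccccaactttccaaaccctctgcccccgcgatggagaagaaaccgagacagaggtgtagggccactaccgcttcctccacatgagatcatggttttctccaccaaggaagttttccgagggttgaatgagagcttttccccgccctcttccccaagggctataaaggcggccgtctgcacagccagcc
Il6 (chr5:30012864-30013113, plus strand): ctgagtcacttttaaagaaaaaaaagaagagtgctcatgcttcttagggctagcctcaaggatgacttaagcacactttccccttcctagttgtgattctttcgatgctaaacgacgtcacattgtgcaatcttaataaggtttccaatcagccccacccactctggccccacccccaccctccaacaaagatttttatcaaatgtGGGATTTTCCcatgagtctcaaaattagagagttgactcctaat
Cxcl1 (chr5:90890995-90891244, plus strand): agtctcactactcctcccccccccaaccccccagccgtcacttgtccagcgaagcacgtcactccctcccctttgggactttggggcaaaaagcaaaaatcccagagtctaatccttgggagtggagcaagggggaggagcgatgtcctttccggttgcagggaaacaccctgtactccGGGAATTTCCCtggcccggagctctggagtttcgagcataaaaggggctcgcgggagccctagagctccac
Cxcl2 (chr5:90903649-90903898, plus strand): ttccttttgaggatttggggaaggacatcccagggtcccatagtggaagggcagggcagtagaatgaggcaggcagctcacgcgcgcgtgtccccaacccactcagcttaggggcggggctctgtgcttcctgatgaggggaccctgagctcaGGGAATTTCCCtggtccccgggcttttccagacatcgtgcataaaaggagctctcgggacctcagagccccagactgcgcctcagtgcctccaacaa

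Cxcl1 and Cxcl2 held the same run of capitals, which holds 2 overlapping matches, at 71 and 70 bases before the start in Cxcl1 and at 97 and 96 bases in Cxcl2. Il6 held a match 44 bases before its start. Among the other members with an entry in the RefSeq promoter table, Csf3r held a match 129 bases before the start, and Il1b, Ptgs2, Ccl3 and the 3 windows of Il1rn held none, as did Tnf. Matches on either strand were found in 7.25% of the 32851 windows of the same length. Of the other motifs searched on both strands, TATAAA (12.4% of windows) stood 29 bases before the Tnf start and 31 bases before the Il1b start, and TTGCNNAA, the C/EBP motif (9.56% of windows), stood in Il6 and Ptgs2. TGANTCA, the AP-1 motif (6.75%), stood in Il6 and in 1 window of Il1rn, and TGACGTCA, the cyclic AMP element (1.55%), in none. These are matches of letters in a window and say nothing of binding.

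Depth, recovered from the steps between the deposited values, was 14069666 to 17858904 reads per library. Values are FPKM, reads per kilobase of a gene's merged exons, scaled to the depth of the library, so levels can be compared between genes only roughly. Merged exons join all annotated transcripts, and a gene whose main transcript is shorter than that reads low. For Cxcl1 and Cxcl2 the merged exons cover the whole gene (1875 and 2068 bases). Of 25 measured genes of a neutrophil list, 8 stayed below 1 FPKM in each library: Elane, a granule protease, had 0 in all 12 libraries, Mpo, myeloperoxidase, reached 0.104 FPKM, and Ly6g, the usual mouse neutrophil surface marker, reached 0.142 FPKM. Elane and Mpo are transcribed mainly in precursors of neutrophils. Other genes of the list were well above 0: 7 exceeded 5 FPKM in each library, among them Lcn2 and Ltf, which epithelium and glands also make, S100a9 (13.8 to 317 FPKM), Cxcr2 (8.39 to 17.7 FPKM) and Il1r2 (7.73 to 20.2 FPKM). S100a8 spanned 4.33 to 68 FPKM and Clec4d 2.12 to 17 FPKM. Levels in the list were thus mixed, and the 10 genes are described here by name. In bulk tissue, fewer cells of a type and less RNA per cell cannot be told apart. Several libraries stand apart from the partner of their group: HF 15h replicate 6 and HF 21h replicate 6 in immediate early genes, and CTL 9h replicate 2, CTL 21h replicate 1 and HF 15h replicate 6 (407 FPKM in sum, against 146 in its partner) in the neutrophil list. HF 15h replicate 2 stood lowest in summed macrophage and monocyte markers, at 388 FPKM against 1190 FPKM in its partner and 748 FPKM or more in every other library.

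Averaged over the 3 times, Tnf fell on the high-fat diet, and it was the 1 gene of the 10 that passed the test. Ccl4 and Ccl3, the members most like it across libraries, had values of the same sign and similar size, but neither passed. For the other 7 genes the limma adjusted p was 0.536 to 0.804. The test was limma on log2(FPKM + 1) with Benjamini-Hochberg adjustment over 13228 genes. It called 262 of them (1.98%), 235 lower in HF (1.78%), and all 10 members were among the genes tested. Without adjustment 3 members had a p under 0.05, beside 14.1% of all genes. The members' median log2 fold change was -0.33, beside -0.01 over all genes tested, and 7 of 10 values were negative, beside 52% of all genes.

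**Figure D1:**
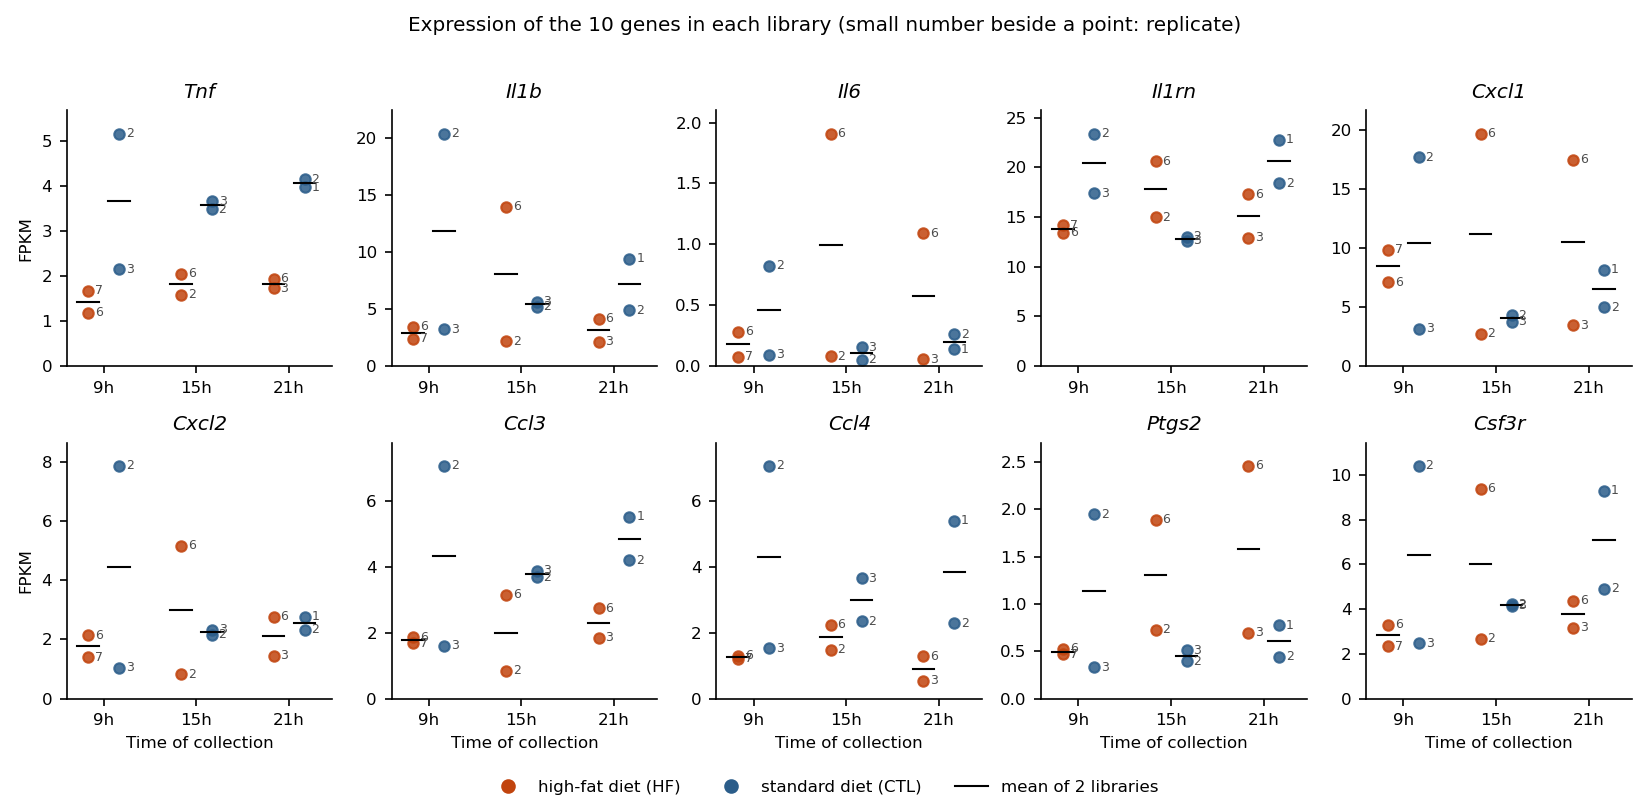
FPKM (vertical axis, from 0) of each of the 10 genes in the 12 libraries, by time of collection, with high-fat libraries left of control libraries, bars at the mean of 2 libraries and the replicate number beside each point. The 6 high-fat points of Tnf lie between 1.19 and 2.05 FPKM, below all 6 control points, while most other panels hold 1 to 3 single high points.

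Tnf encodes tumour necrosis factor, made mainly by macrophages, mast cells and T cells (ENSMUSG00000024401, GRCm38 chromosome 17, 35199381 to 35202007, minus strand). At 9h it had 1.19 and 1.68 FPKM in HF libraries, against 5.17 and 2.15 FPKM in CTL libraries. At 15h it had 1.59 and 2.05 FPKM in HF libraries, against 3.49 and 3.67 FPKM in CTL libraries. At 21h it had 1.73 and 1.94 FPKM in HF libraries, against 3.98 and 4.15 FPKM in CTL libraries. Each of the 6 HF values lay below each of the 6 CTL values, a separation in this direction that 1.86% of all genes showed. The highest HF library (2.05 FPKM) and the lowest CTL library (2.15 FPKM) were close, at 50 recovered reads (95% Poisson interval 37.1 to 65.9) and 63 reads (48.4 to 80.6). Tnf averaged 1.7 ± 0.301 FPKM in HF libraries and 3.77 ± 0.987 FPKM in CTL libraries (SD, n = 6 each). The log2 fold change was -0.80 ± 0.15 (SE), 0.574-fold on the FPKM + 1 scale, with a limma adjusted p of 0.031. With diets exchanged between libraries of the same time, an exact 2-sided permutation test gave p = 0.00926, the smallest that its arrangements can give.

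The Tnf difference kept its sign, at -0.96 to -0.64 with 1 library left out, but the call was close to its threshold. It was kept without CTL 9h replicate 2 (log2 fold change -0.64, limma adjusted p = 0.0171), without CTL 9h replicate 3 (-0.96, limma adjusted p = 0.00458) and without HF 15h replicate 6 (-0.84, limma adjusted p = 0.0442). Leaving out either HF 9h library, HF 15h replicate 2, either CTL 15h library or any library of 21h ended it, with limma adjusted p-values of 0.051 to 0.11 and log2 fold changes of -0.85 to -0.75. Without the 2 control libraries high in the neutrophil list the difference was -0.65 (limma adjusted p = 0.0566), without those and the 2 HF libraries high in immediate early genes -0.70 (limma adjusted p = 0.147), and in limma-voom on recovered reads -1.11 (adjusted p = 0.0584). At single times the Tnf differences were -0.86 ± 0.26 at 9h, -0.70 ± 0.26 at 15h and -0.84 ± 0.26 at 21h (SE), each with HF libraries below CTL libraries and none past the adjusted threshold. The 9h value rested on the CTL pair: it was -0.38 without CTL 9h replicate 2 and -1.35 without CTL 9h replicate 3.

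Ccl3 and Ccl4 are neighbouring genes for the chemokines MIP-1alpha and MIP-1beta, which draw monocytes, natural killer cells and T cells. Ccl4 (ENSMUSG00000018930, chromosome 11, 83662584 to 83664683, plus strand) had 1.3 and 1.21 FPKM in HF libraries at 9h, against 7.05 and 1.52 FPKM in CTL libraries. At 15h Ccl4 had 1.48 and 2.24 FPKM in HF libraries, against 2.34 and 3.64 FPKM in CTL libraries. At 21h Ccl4 had 0.537 and 1.28 FPKM in HF libraries, against 5.39 and 2.29 FPKM in CTL libraries. The diets did not overlap at any of the 3 times, though the highest HF library and the lowest CTL library over all times did. With 2 libraries a side, separation at 1 time is common by chance. The shares of all genes separated at 1 time or at all 3 times are not given, so how unusual this is was not tested. The log2 fold change of Ccl4 was -0.92 ± 0.29 (SE), with a limma adjusted p of 0.187 and an exact permutation p of 0.00926. Counts were low, at 5 to 22 recovered reads in HF libraries and 18 to 79 reads in CTL libraries.

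Ccl3 (ENSMUSG00000000982, chromosome 11, 83647844 to 83649355, minus strand) had 1.87 and 1.68 FPKM in HF libraries at 9h, against 7.07 and 1.61 FPKM in CTL libraries. At 15h Ccl3 had 0.852 and 3.15 FPKM in HF libraries, against 3.69 and 3.88 FPKM in CTL libraries. At 21h Ccl3 had 1.85 and 2.75 FPKM in HF libraries, against 5.52 and 4.2 FPKM in CTL libraries. The diets overlapped at 9h, through CTL 9h replicate 3, and at no other time, again with no share over all genes given. The log2 fold change of Ccl3 was -0.78 ± 0.28 (SE), with a limma adjusted p of 0.259 and an exact permutation p of 0.0278. Without CTL 9h replicate 3 both chemokines passed, Ccl3 at -1.05 (limma adjusted p = 0.0494) and Ccl4 at -1.20 (limma adjusted p = 0.0279). Without CTL 9h replicate 2 they stood at -0.51 and -0.64, with limma adjusted p-values of 0.5 and 0.344.

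**Figure D2:**
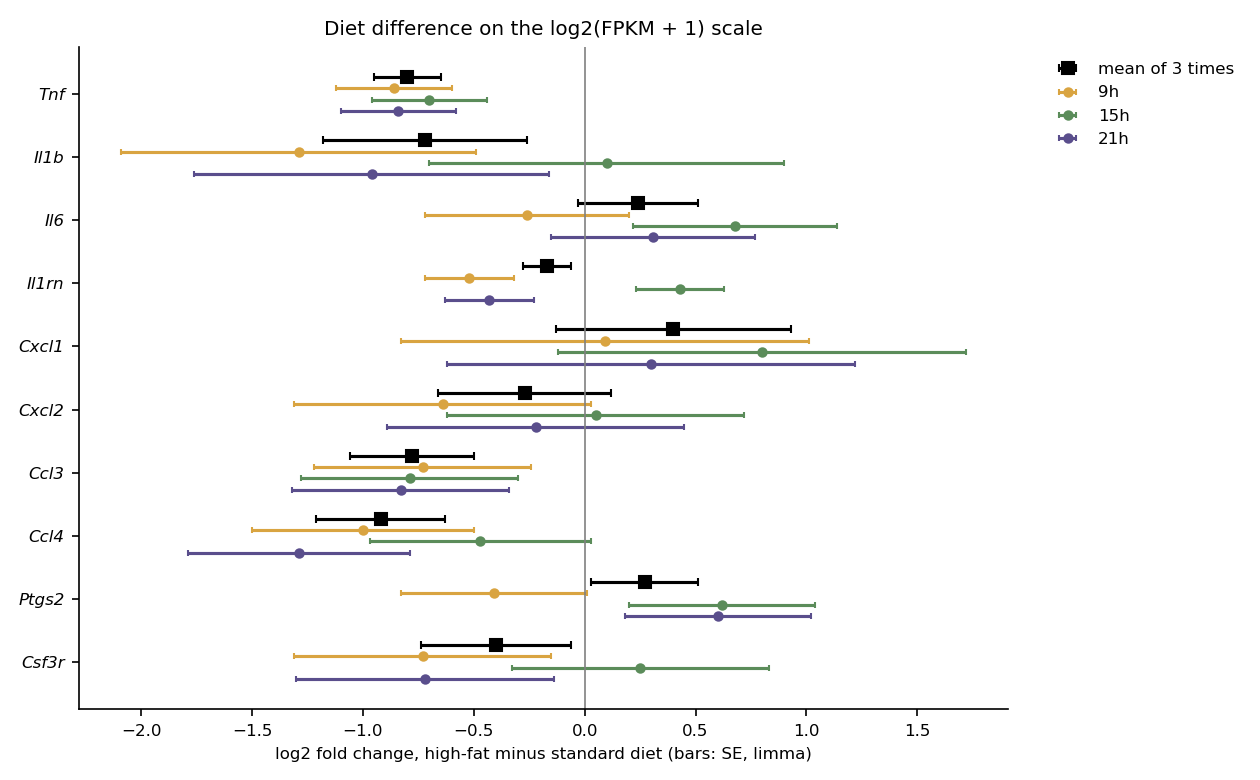
Log2 fold change on the log2(FPKM + 1) scale (horizontal axis), high-fat minus standard diet, for each gene: black squares are the mean of the 3 times, coloured points the single times, and bars the limma SE. Tnf, Ccl3 and Ccl4 lie left of 0 at all 3 times, and the single-time bars of Il1b, Cxcl1, Cxcl2 and Csf3r are the widest, with an SE of 0.58 to 0.92.

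Il1b encodes interleukin-1 beta, which is made as a precursor and cut by caspase-1 (ENSMUSG00000027398, chromosome 2, 129364570 to 129371139, minus strand). It had 3.46 and 2.41 FPKM in HF libraries at 9h, against 20.4 and 3.25 FPKM in CTL libraries. At 15h Il1b had 2.19 and 14 FPKM in HF libraries, against 5.23 and 5.67 FPKM in CTL libraries. At 21h Il1b had 2.16 and 4.16 FPKM in HF libraries, against 9.44 and 4.92 FPKM in CTL libraries. The diets overlapped at 9h and 15h, and CTL 9h replicate 2 and HF 15h replicate 6 stood far above the rest. The log2 fold change of Il1b was -0.72 ± 0.46 (SE), with a limma adjusted p of 0.536 and an exact permutation p of 0.25. It was -0.33 without CTL 9h replicate 2 and -1.09 without HF 15h replicate 6, with limma adjusted p-values of 0.891 and 0.234. Exons of the antisense gene Il1bos overlap Il1b on the opposite strand. As the strand setting of the counting is not given in the sources used here, reads of the pair may not be told apart.

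Il1rn encodes the IL-1 receptor antagonist, which blocks the receptor of interleukin-1 and is abundant in epidermis (ENSMUSG00000026981, chromosome 2, 24336853 to 24351494, plus strand). It had the highest median level of the 10 in both diets. At 9h Il1rn had 13.4 and 14.2 FPKM in HF libraries, against 23.4 and 17.4 FPKM in CTL libraries. At 15h it had 15 and 20.6 FPKM in HF libraries, against 13 and 12.6 FPKM in CTL libraries. At 21h it had 12.9 and 17.3 FPKM in HF libraries, against 22.8 and 18.4 FPKM in CTL libraries. HF values lay below CTL values at 9h and 21h and above them at 15h, with no overlap at any time. With 2 libraries a side such gaps are common by chance, and the share of all genes with this pattern is not given. The log2 differences were -0.52 ± 0.20 at 9h, 0.43 ± 0.20 at 15h and -0.43 ± 0.20 at 21h (SE). Each kept its sign but moved with single libraries, to -0.31 at 9h without CTL 9h replicate 2, 0.21 at 15h without HF 15h replicate 6, and -0.24 and -0.28 at 21h without HF 21h replicate 3 or CTL 21h replicate 1. For Il1rn the limma F test of diet by time gave 0.0134 before adjustment and 0.999 after it. That test called 0 of 13228 genes (0%), as did limma-voom on recovered reads, and 405 genes by limma and 375 by limma-voom had an unadjusted p under 0.05. Averaged over times Il1rn differed by -0.17 ± 0.11 (SE, limma adjusted p = 0.543), and by -0.25 to -0.10 with 1 library left out.

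The level of Il1b relative to its antagonist, as a ratio of FPKM, was 0.146 to 0.68 in HF libraries (median 0.205) and 0.187 to 0.874 in CTL libraries (median 0.408). Il1rn exceeded Il1b in all 12 libraries. The ratio came closest to 1 in CTL 9h replicate 2 and next in HF 15h replicate 6, the libraries with the most Il1b. The mean log2 difference of the ratio was -0.70 (exact permutation p = 0.185).

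Il6 encodes interleukin-6, an inducer of acute phase proteins and of T helper 17 cells (ENSMUSG00000025746, chromosome 5, 30013114 to 30019981, plus strand). Its level was the lowest of the 10 and was carried by few libraries. HF libraries had 0.283 and 0.0756 FPKM at 9h, 0.0806 and 1.91 FPKM at 15h, and 0.0584 and 1.09 FPKM at 21h. CTL libraries had 0.825 and 0.0921 FPKM at 9h, 0.053 and 0.156 FPKM at 15h, and 0.138 and 0.26 FPKM at 21h. HF 15h replicate 6 had 69 recovered reads (95% Poisson interval 53.7 to 87.3) and HF 21h replicate 6 had 44 (32 to 59.1), against 3 (0.619 to 8.77) and 2 (0.242 to 7.22) in their partners. Those gaps were larger than counting error, and they lay between libraries of the same diet and time. The diet difference of Il6 was 0.24 ± 0.27 (SE, limma adjusted p = 0.734, exact permutation p = 0.472), and it was 0.12 without CTL 9h replicate 3 and 0.48 without HF 15h replicate 2. Only the 2 libraries HF 15h replicate 6 and HF 21h replicate 6 exceeded 1 FPKM, so Il6 passed the filter through them and was not tested where either was left out.

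Cxcl1 and Cxcl2 are neighbouring genes for related chemokines that act on CXCR2 of neutrophils. As close relatives they may exchange some reads in counting. Cxcl1 (ENSMUSG00000029380, chromosome 5, 90891241 to 90893115, plus strand) had 7.1 and 9.86 FPKM in HF libraries at 9h, against 17.7 and 3.16 FPKM in CTL libraries. At 15h Cxcl1 had 2.75 and 19.7 FPKM in HF libraries, against 4.32 and 3.78 FPKM in CTL libraries. At 21h Cxcl1 had 3.48 and 17.5 FPKM in HF libraries, against 8.17 and 4.97 FPKM in CTL libraries. The 2 HF replicates numbered 6 of the later times and CTL 9h replicate 2 stood at 17.5 FPKM or more, and the next library had 9.86 FPKM. The log2 difference of Cxcl1 was 0.40 ± 0.53 (SE, limma adjusted p = 0.788, exact permutation p = 0.519), and it was -0.35 without both HF libraries high in immediate early genes.

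Cxcl2 (ENSMUSG00000058427, chromosome 5, 90903871 to 90905938, plus strand) had a lowest, median and highest value of 0.82, 1.79 and 5.16 FPKM in HF libraries, against 1.05, 2.32 and 7.86 FPKM in CTL libraries. Its highest HF library was 15h replicate 6 and its highest CTL library 9h replicate 2. The log2 difference was -0.27 ± 0.39 (SE, limma adjusted p = 0.804, exact permutation p = 0.556), and it was 0.08 without CTL 9h replicate 2. Cxcl1 exceeded Cxcl2 in each library, 2.42- to 7.09-fold in HF libraries (median 3.58) and 1.63- to 3-fold in CTL libraries (median 2.2). The mean log2 difference of the ratio was 0.84, with an exact permutation p of 0.0278 and of 0.0834 after Benjamini-Hochberg adjustment over 3 ratios (with Il1b over Il1rn and Ccl3 over Ccl4), so it did not pass. The ratios were chosen with the values known.

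Ptgs2 encodes cyclooxygenase-2, the inducible enzyme of prostaglandin synthesis (ENSMUSG00000032487, chromosome 1, 150100031 to 150108227, plus strand). Its lowest, median and highest values were 0.468, 0.712 and 2.46 FPKM in HF libraries, against 0.33, 0.476 and 1.95 FPKM in CTL libraries. The libraries above 1 FPKM were HF 21h replicate 6 (2.46 FPKM), CTL 9h replicate 2 (1.95 FPKM) and HF 15h replicate 6 (1.89 FPKM). The log2 difference of Ptgs2 was 0.27 ± 0.24 (SE, limma adjusted p = 0.667, exact permutation p = 0.324). It was 0.08 without CTL 9h replicate 3, 0.10 without HF 21h replicate 6 and 0.46 without CTL 9h replicate 2. Prostaglandin and leukotriene enzymes other than Ptgs2 gave 0 called of 15 tested by limma and 0 by limma-voom. Their median was -0.13, and 5 had a p under 0.05 before adjustment. Those with the smallest p were Pla2g4a, the phospholipase that frees arachidonic acid (-0.29, limma adjusted p = 0.0953), and Alox12 (-0.43, limma adjusted p = 0.173).

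Csf3r encodes the receptor for G-CSF, carried mainly by neutrophils and their precursors (ENSMUSG00000028859, chromosome 4, 126024550 to 126044440, plus strand). Its lowest, median and highest values were 2.34, 3.23 and 9.39 FPKM in HF libraries, against 2.48, 4.56 and 10.4 FPKM in CTL libraries. The highest were CTL 9h replicate 2 (10.4 FPKM), HF 15h replicate 6 (9.39 FPKM) and CTL 21h replicate 1 (9.29 FPKM), and the next library had 4.91 FPKM. The log2 difference of Csf3r was -0.40 ± 0.34 (SE, limma adjusted p = 0.638, exact permutation p = 0.333). It was -0.11 without CTL 9h replicate 2, -0.69 without CTL 9h replicate 3 and 0.02 without the 2 control libraries high in the neutrophil list. S100a9, a calcium-binding protein of neutrophils and of stressed epidermis, was high in the same 3 libraries, at 82.5 FPKM in HF 15h replicate 6, 154 FPKM in CTL 9h replicate 2 and 317 FPKM in CTL 21h replicate 1, and at 13.8 to 27.2 FPKM in the other 9. Of the 25 measured genes of the neutrophil list, 9 were highest in CTL 9h replicate 2, 9 in CTL 21h replicate 1 and 2 in HF 15h replicate 6. These counts include the 8 genes below 1 FPKM in each library, and the shares over all genes are not given. Not all of the list went this way: Cxcr2 had 10.4 FPKM in CTL 21h replicate 1, against 11.6 FPKM in its partner. Padi4 had 6.08 FPKM in CTL 21h replicate 1, against 6.89 FPKM, and 6.1 FPKM in CTL 9h replicate 2, against 8.78 FPKM.

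At single times no member was called. At 9h limma and limma-voom each called 0 genes (0%), and before adjustment 955 and 965 had a p under 0.05. Tnf and Il1rn were among the 955, with limma adjusted p-values of 0.438 and 0.613. At 15h limma called 8 genes (0.0605%) and limma-voom 0, and before adjustment 1531 and 1450 had a p under 0.05. Tnf (limma adjusted p = 0.359) was the 1 member among the 1531. At 21h limma called 1 gene (0.00756%) and limma-voom 0, and before adjustment 711 and 625 had a p under 0.05. Tnf and Ccl4 were among the 711, with limma adjusted p-values of 0.586 and 0.798.

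Time of day was tested over both diets together, and 193 genes were called (1.46%), none of them a member. The limma F test gave the members p-values of 0.351 (Il1rn) to 0.99 (Cxcl2), with no member under 0.05 unadjusted by limma or by limma-voom. Tnf averaged 2.55 ± 1.79 FPKM at 9h, 2.7 ± 1.04 FPKM at 15h and 2.95 ± 1.29 FPKM at 21h (SD, n = 4 each). Il1b averaged 7.38 ± 8.7, 6.77 ± 5.06 and 5.17 ± 3.08 FPKM at the same times. In both genes this spread within a time was larger than the differences between times. The spread pools both diets, so for Tnf it holds the diet difference. Within groups the Tnf SD was 0.151 FPKM (HF) and 0.125 FPKM (CTL) at 21h, and 0.347 FPKM and 2.14 FPKM at 9h (n = 2 each).

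Within each group the library with the higher median over the members was set against the other. The members' own values set this direction, so a majority of them being higher was largely fixed beforehand. In 3 of the 6 groups that library was higher for all 10 members. Of all genes tested, 48.6% were higher in it in CTL 9h, 46% in HF 15h and 45.6% in HF 21h. In CTL 9h, replicate 2 exceeded replicate 3 for all 10 members and at least 2-fold (on FPKM + 1) for 7 of them, beside 0.937% of all genes. In HF 15h, replicate 6 exceeded replicate 2 for all 10 and at least 2-fold for 6, beside 2.12% of all genes. The median difference over the members was 1.65 and 1.30 on the log2 scale in these pairs, beside -0.01 and -0.03 over all genes.

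In HF 21h, replicate 6 exceeded replicate 3 for all 10 members and at least 2-fold (on FPKM + 1) for 2, Cxcl1 and Ptgs2, beside 0.507% of all genes. The median difference was 0.60 beside -0.02 over all genes. On FPKM alone, Il6 and Ccl4 were also more than 2-fold apart there, at 18.6- and 2.37-fold. In CTL 21h, replicate 1 exceeded replicate 2 for 8 of 10, beside 50.4% of all genes, with a median of 0.32 beside 0.00. In HF 9h and CTL 15h 7 of 10 were higher, beside 67.8% and 54.3% of all genes. The medians there were 0.08 and 0.07 beside 0.15 and 0.02. These 3 pairs had no member 2-fold apart on FPKM + 1 in the direction given, beside 1.24% of all genes in HF 9h (replicate 6 over 7), 0.257% in CTL 15h (replicate 3 over 2) and 1.11% in CTL 21h (replicate 1 over 2). On FPKM alone, Il6 was 3.75-fold apart in HF 9h and 2.95-fold in CTL 15h, and Ccl4 2.35-fold in CTL 21h. CTL 9h replicate 2 was the highest of the 12 libraries for 7 members and among the highest 3 for all 10. HF 15h replicate 6 was the highest for Il6 and Cxcl1, and HF 21h replicate 6 for Ptgs2. As libraries were compared 1 against 1, these are descriptions with no test.

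**Figure D3:**
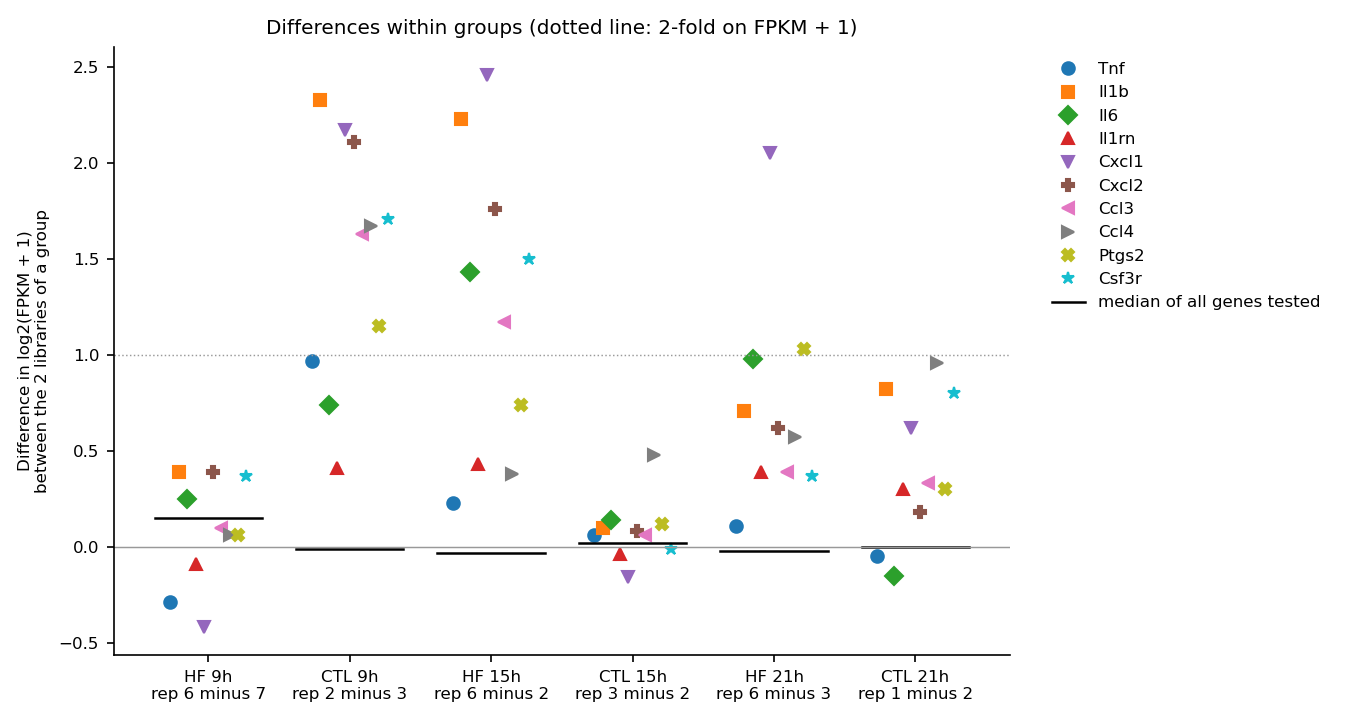
Difference in log2(FPKM + 1) between the 2 libraries of each group (vertical axis) for the 10 genes, with the median of all genes tested as a black line. Most members lie well above that line in CTL 9h and HF 15h, Cxcl1 does so in HF 21h as well, and all lie within 1 unit of 0 in HF 9h, CTL 15h and CTL 21h.

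The libraries with high members were alike in some other genes and not in others. The mean log2(FPKM + 1) of the stressed epidermis list was 6.41 in CTL 21h replicate 1 and 5.71 in CTL 9h replicate 2. It was 5.49 in HF 15h replicate 6, 5.03 in HF 21h replicate 6 and at most 4.93 in any other library. That list holds S100a8 and S100a9 too. Its summed level did not set these libraries apart, with the highest in CTL 9h replicate 3 (3044 FPKM). In immediate early genes, mainly transcription factors, induced within minutes of a stimulus, the summed level was 556 to 1701 FPKM in HF libraries and 542 to 678 FPKM in CTL libraries. The highest were HF 21h replicate 6 (1701 FPKM) and HF 15h replicate 6 (1399 FPKM), while CTL 9h replicate 2 had 678 FPKM. Fos was at 101 and 162 FPKM in HF 15h replicate 6 and HF 21h replicate 6, at 51.5 FPKM in HF 9h replicate 6 and at 6.76 to 16.5 FPKM in the other 9 libraries. Summed neutrophil list genes spanned 146 to 407 FPKM in HF libraries and 155 to 881 FPKM in CTL libraries. The highest sums were in CTL 21h replicate 1 (881 FPKM), CTL 9h replicate 2 (560 FPKM) and HF 15h replicate 6 (407 FPKM). In CTL 21h replicate 1, S100a9 (317 FPKM), Lcn2 (185 FPKM) and Ltf (112 FPKM), which epithelium also makes, held much of that sum. The same library was highest in summed keratinocyte genes, at 6456 FPKM. Its Krt1 was at 382 FPKM, against 30.5 FPKM in its partner, but its Krt14 was at 1509 FPKM, against 2052 FPKM. Summed macrophage and monocyte markers spanned 388 to 1190 FPKM in HF libraries and 890 to 1549 FPKM in CTL libraries. The part of these in the members' values was not tested.

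**Figure D4:**
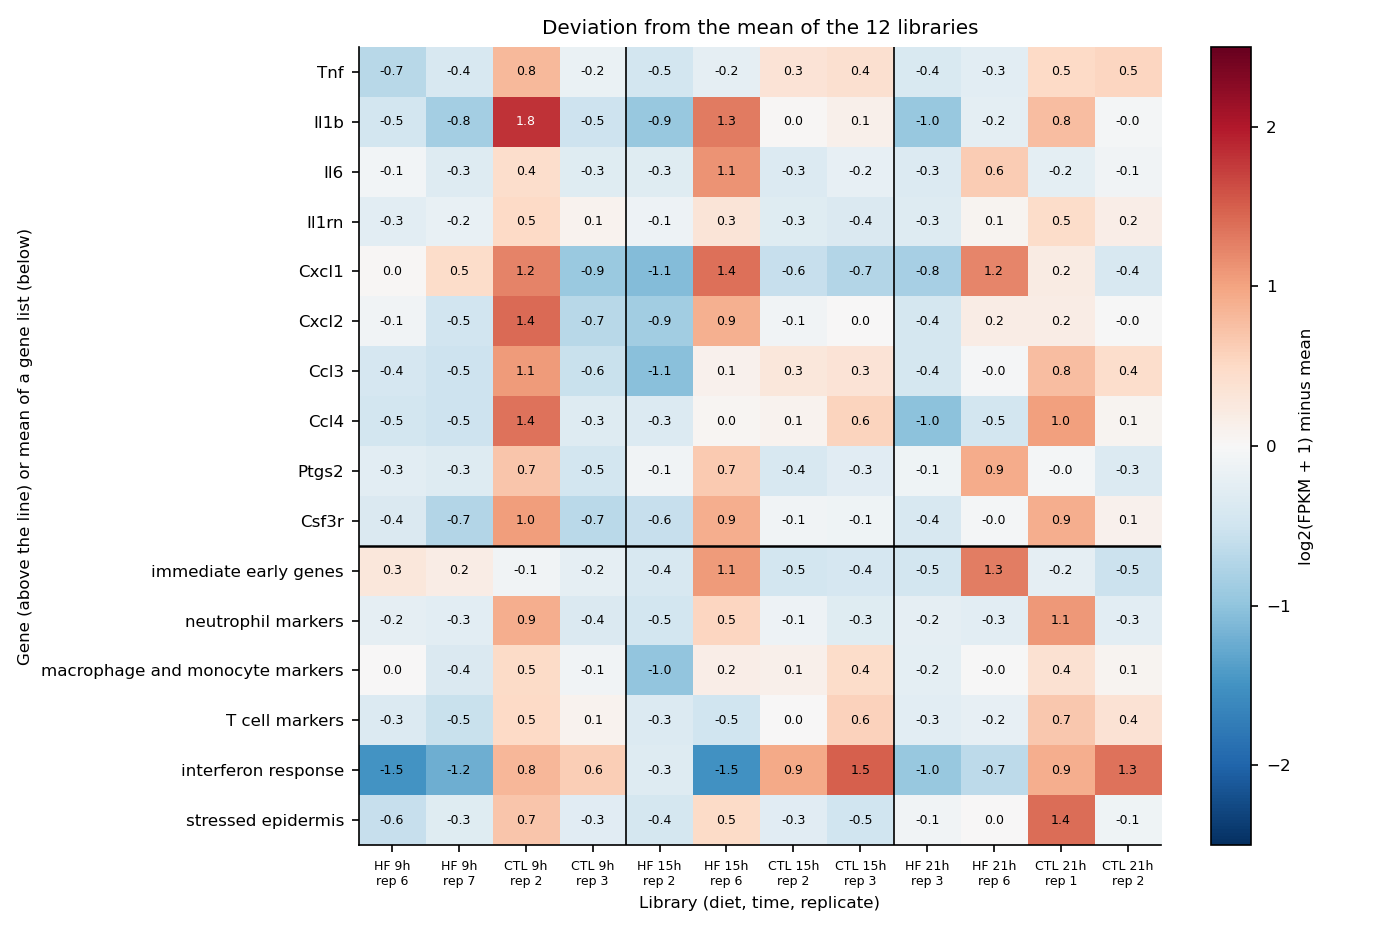
Deviation of log2(FPKM + 1) from the mean of the 12 libraries for the 10 genes (above the line) and for the mean of 6 gene lists (below it), by library, with red for higher and blue for lower values. CTL 9h replicate 2 is red for all 10 genes, HF 15h replicate 6 and HF 21h replicate 6 share high immediate early genes, and the interferon list separates the diets.

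Across the 12 libraries the members fell into looser and tighter pairs, described here by Pearson's r of log2(FPKM + 1) with no test, since libraries share diet, time and depth. Tnf had an r of 0.89 with Ccl3 and 0.85 with Ccl4, but 0.03 with Il6 and 0.11 with Cxcl1. Without CTL 9h replicate 2 and HF 15h replicate 6 (n = 10) these were 0.87, 0.80, -0.12 and -0.11. Il1b had an r of 0.95 with Csf3r and 0.94 with Cxcl2, or 0.91 and 0.79 without those libraries. Il6 had an r of 0.87 with Ptgs2 and 0.84 with Cxcl1, or 0.87 and 0.75.

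Over all genes tested, the most alike to Tnf were Runx3 (r = 0.97), a transcription factor of cytotoxic T cells among others, Bak1 (0.94) and Shisa5 (0.94). Il1b was closest to Ccl2 (0.96), a monocyte chemokine, and to Selp and Sele (0.95 each), the selectins by which endothelium catches white blood cells, and Cxcl2 to Ccl2 (0.96), Clec4e (0.94) and Il1b (0.94). Csf3r was closest to Reg3g (0.96), an antimicrobial lectin, Socs3 (0.95) and Il1b (0.95). For Il6 they were Atf3 (0.91), an immediate early factor, Has1 (0.91) and Spink4 (0.90), for Ptgs2 Ccr10 (0.94), Muc5ac (0.90) and Il6 (0.87), and for Cxcl1 Nppb (0.90), Nus1 (0.89) and Dusp6 (0.89).

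Among the genes most alike to Ccl3 were Pfn1 (r = 0.96) and Cd53 (0.96), a surface protein of white blood cells. Ccl4 was closest to Xbp1 (0.95), Actr2 (0.95) and Actr3 (0.94). For Il1rn, Slc5a8 and the stress keratin Krt16 were among the most alike (r = 0.90 each). All of these are over 12 libraries, of which a few carry much of the variance.

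Other genes of the same pathways were described by list. Of 19 other cytokines and chemokines tested, limma and limma-voom called 0 in the diet average. Their median log2 fold change was -0.36, 18 values were negative, and 7 had an unadjusted p under 0.05. The smallest p-values were those of Cxcl16 (-0.50, limma adjusted p = 0.137) and Csf1 (-0.46, limma adjusted p = 0.163), a macrophage growth factor.

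The chemokines induced by interferon or made by lymphocytes had larger differences. All 4 tested had negative values, and 3 fell (2 by limma-voom), with a median of -1.74. Ccl5, a chemokine of T cells, averaged 3.43 ± 1.69 FPKM in HF libraries and 18.1 ± 5.48 FPKM in CTL libraries (SD, n = 6 each), a log2 fold change of -2.12 (limma adjusted p = 0.00354). Cxcl10 (-1.75, limma adjusted p = 0.0126) and Cxcl9 (-1.73, limma adjusted p = 0.0265), ligands of CXCR3 on T cells, fell as well, though the Cxcl9 call ended in 12 of 20 alternatives. In the interferon response list all 13 tested genes fell, with a median of -2.03. The summed level of that list was 57.9 to 158 FPKM in HF libraries and 361 to 700 FPKM in CTL libraries.

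On the receiving side, 0 of 14 tested receptors and decoys of the members were called by limma or limma-voom, with a median of -0.09, and 2 had a p under 0.05 before adjustment. Among them was Tnfrsf1b, the second TNF receptor, at 7.47 ± 2.29 FPKM in HF libraries and 11.5 ± 3.2 FPKM in CTL libraries (SD, n = 6 each), with a log2 fold change of -0.58 (limma adjusted p = 0.272). Tnfrsf1a, the widely expressed TNF receptor, was at 64.7 to 88.2 FPKM across the 12 libraries.

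Within NF-kB pathway and feedback genes, 0 of 30 were called by limma or limma-voom. The median was -0.17, 25 values were negative, and 8 had an unadjusted p under 0.05. Nfkbie (-0.55, limma adjusted p = 0.102) and Traf1 (-0.35, limma adjusted p = 0.181) had the smallest p-values. In the list of inflammasome and IL-1 processing genes 1 of 8 fell, Il18bp, the secreted inhibitor of interleukin-18 that interferon induces (-1.02, limma adjusted p = 0.0489). All 8 had an unadjusted p under 0.05, of which 7 had negative values and 1 a positive value (0.24). The list median was -0.39, and limma-voom called 0. The Il18bp call ended in 16 of 20 alternatives.

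White blood cell markers were summarised by cell type, and no test compared the lists. In the T cell list all 12 tested genes had negative values, with a median of -0.56, and 6 fell, among them Cd8b1 (-1.79, limma adjusted p = 0.0052), Cd2 (-0.83, limma adjusted p = 0.00882) and Cd8a (-1.62, limma adjusted p = 0.0116). Its summed level was 13 to 20.2 FPKM in HF libraries and 25.6 to 49.2 FPKM in CTL libraries. By summed level this list, like Tnf, separated all HF libraries from all CTL libraries. So did the interferon response list, and narrowly the interferon-induced and lymphocyte chemokines (at most 23 FPKM in HF, at least 23.2 FPKM in CTL). The part of these lists in the Tnf difference was not tested.

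In the macrophage and monocyte list 0 of 16 genes were called by limma or limma-voom, with 15 negative values and a median of -0.54, and 6 had a p under 0.05 before adjustment. Ly6c2 (-1.0, limma adjusted p = 0.0724), a marker of inflammatory monocytes, and Fcgr1 (-0.82, limma adjusted p = 0.0799) led it. In the neutrophil list 0 of 15 tested genes were called by either tool and 0 had an unadjusted p under 0.05, with a median of -0.32, and Fpr2 (-0.47, limma adjusted p = 0.455) and Il1r2 (-0.32, limma adjusted p = 0.494) had the smallest p-values. Of mast cell markers, 0 of 6 were called by either tool and 0 had an unadjusted p under 0.05, with a median of 0.07. Tpsb2 (0.35, limma adjusted p = 0.431) and Hdc (0.16, limma adjusted p = 0.777) were first among them.

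Among immediate early genes 0 of 19 were called by limma or limma-voom, and 8 had a p under 0.05 before adjustment. Their median was 0.52, and Egr3 (0.40, limma adjusted p = 0.0579) and Egr2 (0.52, limma adjusted p = 0.101) came first. Glucocorticoid targets, which include repressors of these cytokines, had 0 of 10 called by either tool, with all 10 values positive, a median of 0.43 and 6 genes below 0.05 before adjustment, led by Per1 (1.01, limma adjusted p = 0.0802) and Klf9 (0.47, limma adjusted p = 0.0803). In the core clock list, which holds Per1 too, 0 of 15 were called by either tool, the median was 0.17, and 5 genes were below 0.05 before adjustment. After Per1, Ciart had the smallest p there (0.41, limma adjusted p = 0.0962).

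Markers of the cell types of the eyelid itself had medians of -0.31 to 0.24. All 16 meibocyte and sebocyte genes had positive values, with a median of 0.24, and 6 had an unadjusted p under 0.05. Of these genes 1 was called, Soat1, a cholesterol ester enzyme, which rose by 0.42 (limma adjusted p = 0.0408). The Soat1 call ended in 13 of 20 alternatives. The medians were -0.17 for 12 keratinocyte genes, -0.31 for 11 stressed epidermis genes, -0.01 for 10 skeletal muscle genes and 0.04 for 8 endothelial genes. None of these 4 lists had a gene called by limma or limma-voom, and 2, 3, 1 and 1 of their genes had an unadjusted p under 0.05.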

How the data were processed

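The authors deposited 1 table of FPKM values per gene for the 12 libraries. Per the submitters' processing notes, HISAT2 2.0.5, HTSeq 0.9.1, DESeq 1.30.0 and the build mm9 were used, and neither strand setting nor annotation is stated there. The values fit the merged exon lengths of GENCODE release 21 on GRCm38: 98.1% came out as whole reads within 0.02. Coordinates are from that annotation, and promoters are from RefSeq (GRCm38.p6).

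The design foresaw counts or FPKM, and the FPKM test was used: limma 3.58.1 (R 4.3.3) on log2(FPKM + 1), 6 group means, a mean-dependent prior and 6 residual degrees of freedom, for 13228 genes above 1 FPKM in at least 2 libraries. This scale understates changes of low genes. P-values were adjusted (Benjamini-Hochberg) over all genes tested, and genes under 0.05 count as called. The fit was tested on simulated data. A limma-voom fit on the recovered reads of 13215 genes called 236 in the diet average.

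The members and the 19 gene lists were chosen with earlier results of these data known. Named were the members, up to 3 called genes per list (or the 2 with the smallest p) and the 3 genes most alike to each member. Fos, S100a8, S100a9, Cxcr2, Clec4d, Tnfrsf1a, Elane, Mpo, Ly6g, Lcn2, Ltf, Padi4, Krt1 and Krt14 were named after their values were seen. A few genes picked by the rule are not reported here. Alternatives were a pseudocount of 0.1, no filter, quantile normalization, limma-voom, a replicate block, fits of 1 time and leaving out libraries singly or together, of which 2 were added after seeing the data. Poisson intervals cover counting error only.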

Additional observations from a re-analysis of the deposited data

Results flagged for a closer look

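Each gene was examined within each diet, in 20 sets of 6 libraries, for a single library farther from the others than Dixon's criterion allows. Chance flags about 1 set in 20 where values are normally spread. These are linear FPKM values that pool 3 times of day, so that rate may not hold here. Of the 20 sets, 7 were flagged, with 2 libraries accounting for all 7. In HF libraries, HF 15h replicate 6 stood out for Il1b (14 FPKM, next 4.16 FPKM) and Csf3r (9.39 FPKM, next 4.37 FPKM). In CTL libraries, CTL 9h replicate 2 stood out for Il1b (20.4 FPKM, next 9.44 FPKM), Il6 (0.825 FPKM, next 0.26 FPKM), Cxcl1 (17.7 FPKM, next 8.17 FPKM), Cxcl2 (7.86 FPKM, next 2.76 FPKM) and Ptgs2 (1.95 FPKM, next 0.777 FPKM). The genes of 1 library are not independent of each other.

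Il1rn had diet differences of opposite sign at different times with no overlap of libraries, 0.43 at 15h against -0.52 at 9h and -0.43 at 21h on the log2 scale. With 1 library left out these reached 0.21, -0.31 and -0.24. Its limma F test of diet by time gave 0.0134 before adjustment and 0.999 after it, so the difference between times did not pass the correction. The share of all genes with such a pattern is not given.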

How the results depend on the processing

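The Tnf fall in the diet average kept its direction in all 20 alternatives, with log2 fold changes of -1.11 to -0.64, but its call ended in 14 of them (limma adjusted p 0.00458 to 0.147 over all). Members called, 1 in the diet average, numbered 0 without the filter, in limma-voom, without both HF libraries high in immediate early genes, without the 2 control libraries high in the neutrophil list and without those 4, and 0 to 3 when 1 library was left out. Genes called in the diet average, 262, became 49 without the 4, 53 without the 2 controls and 143 to 294 without 1 library. At 9h, 0 called genes became 55 in a fit of that time's libraries alone, 41 without the HF pair and 0 to 155 without 1 library. At 15h, 8 became 2 with a pseudocount of 0.1, 1 without the filter, 5 after quantile normalization, 0 in limma-voom, in that time's libraries alone and in the 3 fits without several libraries, and 0 to 72 without 1 library. At 21h, 1 became 2 after quantile normalization, 6 without the HF pair, 0 in the other alternatives that moved it and 0 to 27 without 1 library. Genes called for time, 193, became 126 with the pseudocount, 7 without the filter, 8 with the replicate block, 5 without the HF pair, 0 without the 2 controls or the 4, and 1 to 2503 without 1 library. No alternative called a member at a single time, for time or for the interaction.

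Uncalled values changed sign as follows, and the cause was not tested. Without the HF pair Cxcl1 was -0.35 in the diet average, -0.43 at 15h and -0.72 at 21h (-0.41 without the 4), and at 15h Il1b was -1.01, Cxcl2 -0.83 and Csf3r -0.49. Without the 2 controls Cxcl2 was 0.11 and Csf3r 0.02 in the diet average, and at 9h Il6 was 0.11, Cxcl2 0.41, Ccl3 0.09, Ptgs2 0.17 and Csf3r 0.12. Cxcl2 at 15h was -0.09 with the pseudocount and -0.13 in limma-voom. With 1 library left out, Cxcl1 spanned -0.01 to 0.81 in the diet average, -1.0 to 1.17 at 9h, -0.43 to 2.04 at 15h and -0.72 to 1.32 at 21h. Cxcl2 spanned -0.62 to 0.08, -1.69 to 0.41, -0.83 to 0.93 and -0.53 to 0.09 in the same order. At 9h the spans were -0.63 to 0.11 for Il6, -1.54 to 0.09 for Ccl3, -0.98 to 0.17 for Ptgs2 and -1.59 to 0.12 for Csf3r, and at 15h -1.01 to 1.22 for Il1b and -0.49 to 1.00 for Csf3r. Il6 and Ptgs2 failed the filter in some of these fits and have no value there.

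The replicate numbers of the labels showed no steady pairing of libraries: deviations of same-numbered libraries correlated at -0.50 to 0.29 over 12 pairs. The pairs share libraries and some join the diets, so these values are not independent. Whether libraries share a cage or batch was not tested. With the number as a random block (estimated correlation -0.112) Tnf was at -0.80 with a limma adjusted p of 0.0229, 290 genes were called in the diet average, and no member's call changed. Depth limits Il6 most, with 2 to 12 reads in 9 libraries.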
